A study of Homo sapiens with 21 samples.

Results

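Nodal is a secreted ligand of the TGF-beta superfamily that maintains the primed pluripotent state and patterns mesoderm and endoderm at gastrulation. It binds activin receptors together with an EGF-CFC co-receptor, and the receptors phosphorylate SMAD2 and SMAD3, which act on DNA with SMAD4 and cofactors such as FOXH1. The pathway switches on its own ligand and its own antagonists, so that LEFTY1 and LEFTY2 act as feedback inhibitors.

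Here 7 genes of this pathway were followed through the differentiation of human induced pluripotent stem cells (iPSC) into beating heart muscle cells. They are the ligands NODAL and GDF3, the co-receptor TDGF1 (also called CRIPTO), the antagonists LEFTY1, LEFTY2 and CER1, and the transcription factor FOXH1. The members were taken by gene symbol, with every transcript that any of the 6 deposited tables lists under these symbols. All 7 genes, of 11851 genes listed in at least 1 table, were present, with 11 transcripts of 21537.

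The cells were wild-type PGP1 iPSCs, an established human line, and 4 stages derived from them. These are mesoderm (M), then mesoderm of the cardiac lineage (CMes), then cardiac progenitors (CP), and at the end cardiomyocytes (CM). Differentiation used a small molecule that activates Wnt signaling followed by an inhibitor of Wnt secretion, and the CMs were enriched by lactate selection. Poly-A RNA was sequenced from 3 libraries at each of the 5 stages, 15 in all, each replicate coming from a plate that was begun at another time. A further 6 CM libraries came from 2 UBE2B-/- lines, 3 libraries from each. UBE2B is an enzyme of the complex that places monoubiquitin on histone H2B, and each line was grown from a clonal colony of edited PGP1 cells in its own editing experiment.

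The tables compare each stage with the next and list only the transcripts that passed the q limit of the study. They hold a mean and variances over the 6 libraries of a comparison and no value per library, so no value by sample, depth or range of replicates can be given. The size of each difference was computed from those variances. Its standard error rests on the spread between replicates, with 4 residual degrees of freedom, or on the smoothed variance of the study where that is larger. The smoothed variance was the larger for 14 of the 29 member differences. Variances carry no sign. The direction was therefore read from neighbouring tables, which share 1 stage and must give that stage the same level. For 20 of the 29 member differences 1 direction met this condition. The other 9 are given as a size with both levels and are called unresolved. Levels are estimated counts of a stage taken back from the mean of their logs, with 0.5 added before and subtracted after. They are thus geometric and not arithmetic means, on the scale of the iPSC to M table. Since every listed transcript has already passed the limit, no further test was made.

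Markers of more than 1 stage were present in M. The mesoderm gene TBXT rose by 9.02 on the log2 scale between iPSC and M, while MIXL1 and EOMES were unresolved there. MESP1, also a mesoderm gene, stood at 1.48 estimated counts in M and 156 in CMes. The pluripotent markers POU5F1, DPPA4 and NANOG still had 9805, 7303 and 2229 estimated counts in M. From M to CMes HAND1 rose by 9.80 and ISL1 by 6.96. The myosin gene MYH7 stood at 110.1 estimated counts in CP and 203169 in CM. Of 6 endoderm markers, 4 were listed from M to CMes, all past 2-fold, and 3 of them were higher in CMes. The sum of the 3 that have a level at all 4 later stages, SOX17, FOXA2 and a transcript of APOA1, was 90.8 estimated counts in M, 2394 in CMes, 2157 in CP and 73.5 in CM.

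For NODAL and CER1, which had the steepest falls of a ligand and of an antagonist, the 250 bases before the annotated start are shown as in RefSeq on GRCh38.p14, read along the gene's own strand. NODAL lies on the minus strand and its window is chr10:70441682-70441931. CER1 is also on the minus strand, with the window chr9:14722734-14722983. Capitals mark AATACACA, a FOXH1-type motif, and CAGAC, a SMAD-type motif.

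NODAL: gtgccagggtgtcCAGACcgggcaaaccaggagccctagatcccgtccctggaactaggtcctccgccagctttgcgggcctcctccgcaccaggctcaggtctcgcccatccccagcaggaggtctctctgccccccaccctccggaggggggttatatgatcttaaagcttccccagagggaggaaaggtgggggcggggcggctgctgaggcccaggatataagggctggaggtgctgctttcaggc

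CER1: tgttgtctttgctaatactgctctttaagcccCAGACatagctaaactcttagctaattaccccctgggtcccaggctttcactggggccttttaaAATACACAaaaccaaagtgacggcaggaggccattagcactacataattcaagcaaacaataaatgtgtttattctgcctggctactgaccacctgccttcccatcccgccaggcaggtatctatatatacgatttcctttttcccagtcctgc

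The motifs AATCCACA, AATACACA, CAGAC and TATAAA were searched on both strands in the windows of NODAL, TDGF1, GDF3 and CER1, 4 of the 7 members having one in the promoter table. No motif searched overlaps another in these windows. AATACACA was found in the window of CER1, beginning 154 bases before the start, and in 0.666% of 35116 windows of the same length. CAGAC was found in those of NODAL (237 bases before the start) and CER1 (218 bases) and in 38.0% of all windows. AATCCACA, present in 0.709% of all windows, and TATAAA, present in 10.7%, were found in none of the 4. The windows of TDGF1 and GDF3 held none of the motifs. A match is a description of the letters and not of binding.

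From iPSC to M the ligand and an antagonist went in opposite directions. NODAL stood at 543 estimated counts in iPSC and 5069 in M, which is 9.33-fold higher (log2 difference 3.22, SE 0.43). LEFTY1, a secreted inhibitor that blocks Nodal and its co-receptor, went from 793 to 183, a fall by 2.11 (SE 0.67). In bulk RNA fewer cells that express a gene and less RNA per cell cannot be told apart, here and in each result that follows. All 5 member transcripts listed at this step, from 4 genes, differed by at least 2-fold, against 49.0% of all 3315 listed transcripts. Of the 2 with a direction 1 was at least 2-fold lower, against 27.9% of the 735 listed transcripts with one.

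The rule, which compares 1 pair of neighbouring tables at a time, gave the other differences from iPSC to M no direction. LEFTY2, the second Lefty inhibitor, had a size of 1.82 (SE 0.24) with levels of 221 and 62.5 estimated counts. For FOXH1 the coding transcript had a size of 1.20 (SE 0.11) with levels of 3891 and 1693. The M to CMes differences of both transcripts have a direction, and they put the M levels at 62.3 and 3881. Carried back to this step, these levels place LEFTY2 lower in M and FOXH1 higher in M. Such carrying back was not part of the rule. A narrower separation between the sign combinations, chosen after seeing the data, gave the same order. TDGF1, GDF3 and CER1 were not listed at this step, which does not show that they kept their level.

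**Figure D1:**
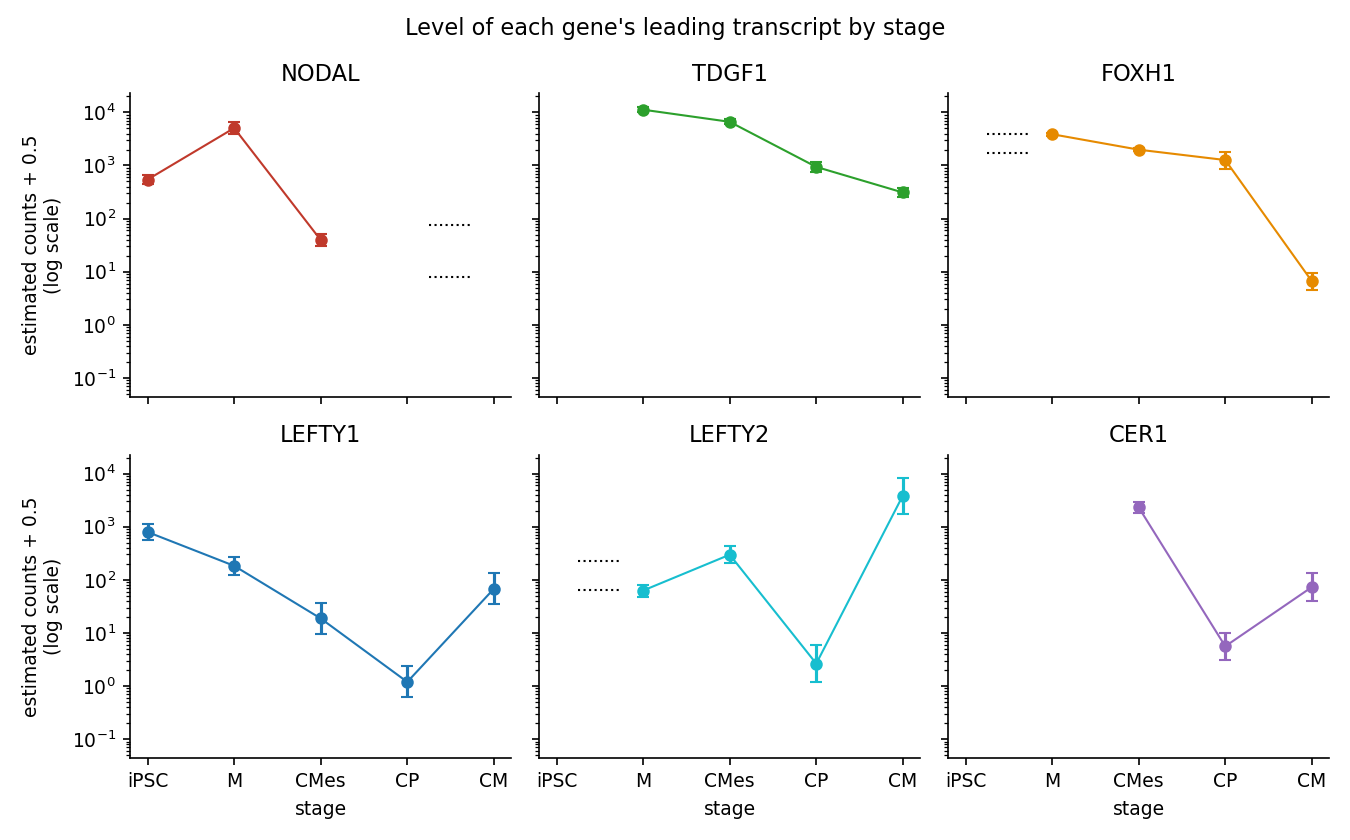
Level of the leading transcript of 6 members at each stage, in estimated counts plus 0.5 on a log axis. Points are geometric stage means over 3 libraries and bars are 1 standard error (the larger where 2 tables give one). Lines join neighbouring stages, and pairs of dotted lines give both levels of a difference whose direction was unresolved. NODAL peaks in M at 5069, while LEFTY1, LEFTY2 and CER1 have their lowest level in CP.

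From M to CMes NODAL fell by 7.0 on the log2 scale (SE 0.53), from 5069 to 39.0 estimated counts. This 128-fold difference was larger than 96.5% of the sizes in that table and 13.2 times its standard error. LEFTY1 fell further, from 183 to 18.2 estimated counts, a log2 difference of -3.29 (SE 0.78). LEFTY2 went the other way, from 62.3 to 296 (log2 difference 2.24, SE 0.53).

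The coding transcripts of TDGF1 and FOXH1 differed by less than 2-fold at this step. TDGF1, the GPI-anchored co-receptor, had the highest level of all members, with 11240 estimated counts in M and 6641 in CMes (log2 difference -0.76, SE 0.21). Its level per kilobase of transcript in M, 5746, was also above those of NODAL, 2463, and FOXH1, 1924. The coding transcript of FOXH1 went from 3881 to 1985 estimated counts (log2 difference -0.96, SE 0.13). Its shorter transcript had a size of 1.57 (SE 0.23), with no direction. Of the 7 member transcripts listed from M to CMes, from 5 genes, 4 differed by at least 2-fold, against 60.2% of the 6541 listed. Among the 6 with a direction, 5 were lower in CMes and 2 of these passed 2-fold, while 23.1% of the 2336 listed transcripts with a direction were at least 2-fold lower. The share past 2-fold was thus near that of all listed transcripts.

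From CMes to CP each of the 6 member transcripts with a direction was lower at the later stage. CER1, a secreted antagonist that binds Nodal, BMP and Wnt ligands and is known from anterior endoderm, had 2304 estimated counts in CMes and 5.09 in CP. Its log2 difference of -8.70 (SE 0.47), 416-fold, was larger than 99.5% of the sizes in the table and 18.4 times its standard error. Over the same step 5 of the 6 endoderm markers were listed. SOX17 fell by 1.87, while FOXA2 was higher by 0.75 and HHEX by 1.93. The APOA1 transcript with the highest mean at this step went from 62.8 to 4588 estimated counts, and AFP had levels of 1671 and 0.523 in an unresolved order. The sum of SOX17, FOXA2 and the other APOA1 transcript, 2394 in CMes and 2157 in CP, leaves these large differences out. Pluripotent markers moved with the members, 4 of the 6 being listed and all 4 lower past 2-fold. POU5F1 fell by 2.70, DPPA4 by 1.94, SOX2 by 3.07 and NANOG by 4.54. The part of either marker group in the member levels was not tested.

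LEFTY2 fell from 296 estimated counts in CMes to 2.14 in CP, a log2 difference of -6.83 (SE 0.74). As the lower level is under a floor of 3 counts per library, the fold is better given against that floor, as at least 98.6-fold lower in CP. Here and below, such a bound covers the floored level alone and leaves out the error of the higher level. LEFTY1 fell from 18.2 to 0.693, at least 6.06-fold lower against the floor, with a size 2.96 times its standard error. Both Lefty genes were thus near the limit of detection in CP.

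TDGF1 fell by 2.82 (SE 0.12), from 6641 to 940 estimated counts, a difference 24.1 times its standard error. FOXH1 changed least, from 1985 to 1266 (log2 difference -0.65, SE 0.10). GDF3, a ligand that is related to Nodal and known from pluripotent cells, was listed at this step alone, with levels of 177 and 8.0 estimated counts and a size of 4.39 (SE 0.48). Which stage held the higher level is unresolved. Of the 8 member transcripts listed from CMes to CP, from 6 genes, 7 passed 2-fold, against 52.5% of 7519 listed. At least 2-fold lower were 5 of the 6 with a direction, against 20.4% of the 3624 listed transcripts with a direction. The median size of the 8 was 4.20 on the log2 scale, beside 1.06 over all listed transcripts.

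**Figure D2:**
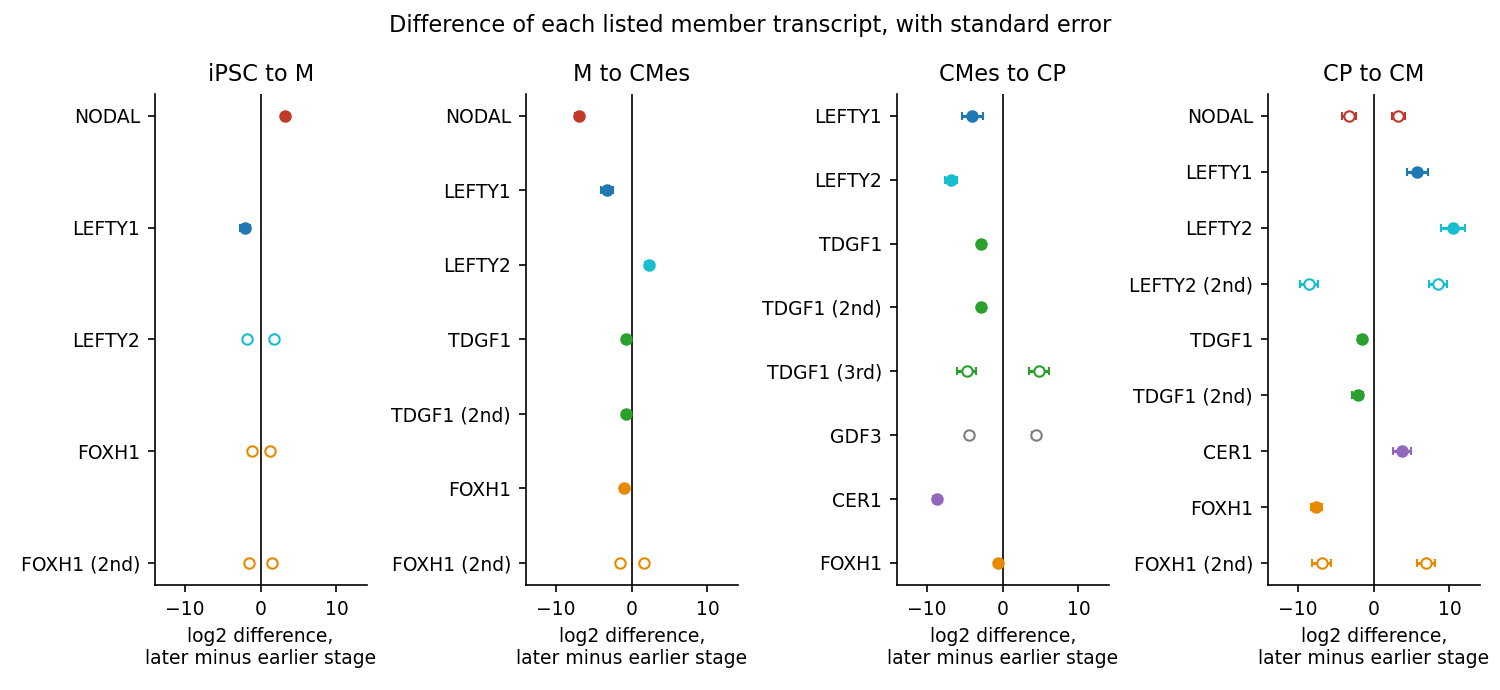
Log2 difference between later and earlier stage for each listed member transcript, 1 panel for each stage transition. Filled points have a direction, open points are drawn on both sides of 0 because theirs was unresolved, and bars are 1 standard error; "2nd" and "3rd" mark further transcripts of a gene. In CMes to CP all 6 filled points lie left of 0, and in CP to CM LEFTY1, LEFTY2 and CER1 lie right of it.

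From CP to CM the antagonists went up and the co-receptor and FOXH1 went down. LEFTY2 stood at 2.14 estimated counts in CP and 3841 in CM (log2 difference 10.48, SE 1.60), which against the floor of 3 counts is at least 1280-fold higher. LEFTY1 went from 0.693 to 67.0, at least 22.3-fold higher against the floor, with a log2 difference of 5.77 (SE 1.37). CER1 went from 5.09 to 72.4 (log2 difference 3.69, SE 1.21). These 3 differences had wide errors, since the residual SD between replicates was 1.96 for LEFTY2, 1.68 for LEFTY1 and 1.48 for CER1 on the log2 scale.

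The listed endoderm markers moved the other way at this step. FOXA2, SOX17, HHEX and APOA1 were listed, 4 of the 6, and all were lower in CM. Their log2 differences were -6.61 (SE 2.49), -4.08 (SE 0.62), -2.95 (SE 1.05) and -3.26 (SE 1.14) in this order. The errors of FOXA2, HHEX and APOA1 were thus wide as well. AFP and CXCR4 were not listed. The sum of SOX17, FOXA2 and 1 APOA1 transcript was 73.5 estimated counts in CM. That APOA1 transcript went from 342 to 35.2, and it is not the one with 4588 in CP. HHEX, outside the sum, stood at 156 in CM. Of the pluripotent markers 5 of 6 were listed, all past 2-fold, with 3 lower in CM and LIN28A and ZFP42 unresolved. SOX2 stood at 6.83 estimated counts in CM. The part of these markers in the member levels was not tested.

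FOXH1 was lower by 7.58 on the log2 scale in CM (SE 0.75), with 1266 estimated counts in CP and 6.14 in CM. TDGF1 went from 940 to 310 (log2 difference -1.61, SE 0.41). NODAL was listed with levels of 76.3 and 7.54 and a size of 3.26 (SE 0.88), the direction being unresolved because NODAL was not listed from CMes to CP. Either level is far under the 5069 of M. All 9 member transcripts listed from CP to CM, from 6 genes, passed 2-fold, against 75.2% of 12982 listed. Of the 6 with a direction 3 were at least 2-fold lower, near the 51.8% of the 2794 listed transcripts with a direction. The other 3 were at least 2-fold higher, and no share of all listed transcripts is given beside them. Whether that count is unusual for this step was not tested.

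**Figure D3:**
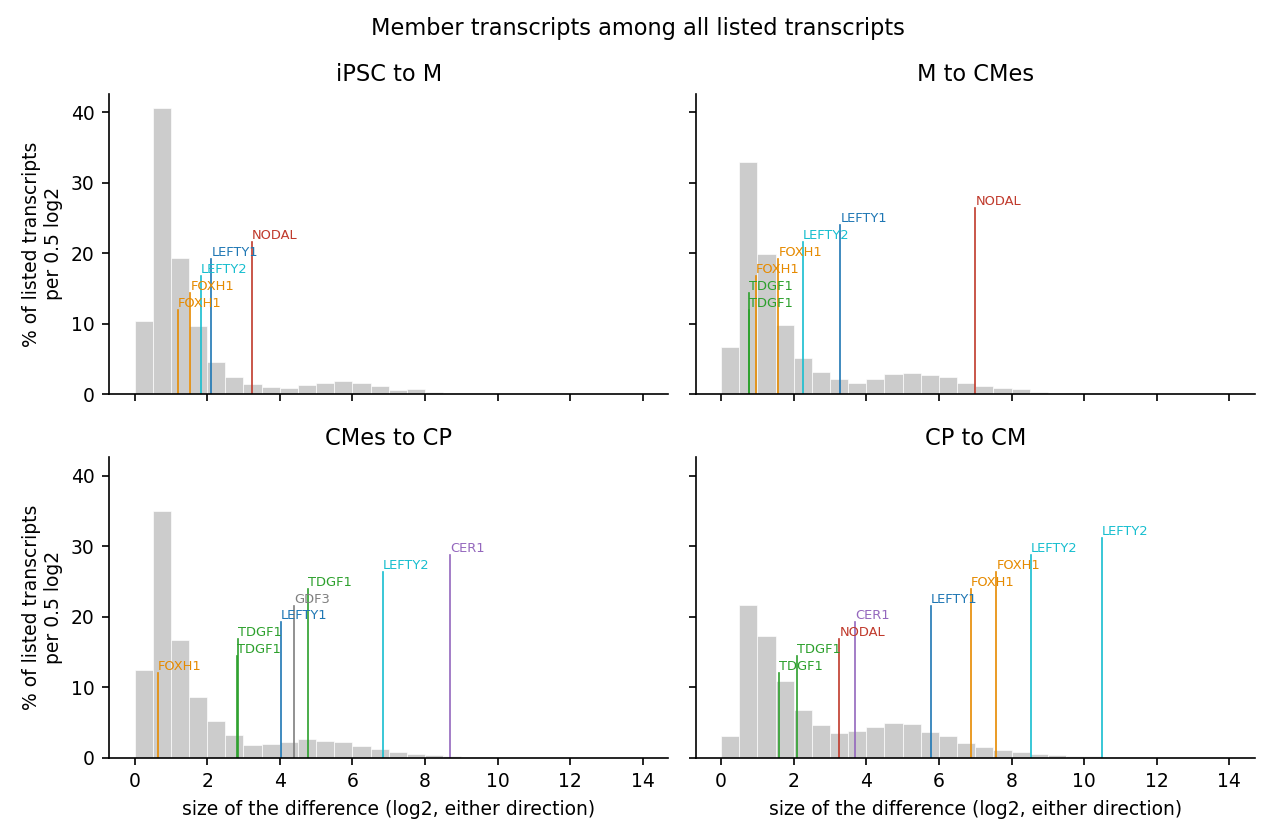
Sizes of the member differences (colored lines, 1 for each transcript) over the distribution of sizes of all listed transcripts (gray bars, percent of listed transcripts per 0.5 log2). The height of a line has no meaning. NODAL stands at 7.0 in M to CMes, CER1 at 8.70 in CMes to CP and LEFTY2 at 10.48 in CP to CM, in the upper tail of each table.

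Set in order, the leading transcripts peaked at different stages. LEFTY1 had its highest level in iPSC. NODAL, TDGF1 and FOXH1 were highest in M among the stages with a level, CER1 in CMes, and LEFTY2 in CM. The lowest level of LEFTY1, LEFTY2 and CER1 was that of CP. For FOXH1 and TDGF1 it was that of CM. Among the stages with a level, TDGF1 had the narrowest range from its highest to its lowest level, 5.18 on the log2 scale, and LEFTY2 the widest, 10.51. These stages differ, being 5 for LEFTY1, 4 for TDGF1, FOXH1 and LEFTY2, and 3 for NODAL and CER1. CER1 has no level in iPSC or M, and NODAL has no resolved level in CP or CM.

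LEFTY1 and LEFTY2 are neighbours on the minus strand of chromosome 1, at 225886282 to 225911382 and at 225936598 to 225941383 on GRCh38 in GENCODE 44, and encode closely related proteins. Their balance turned over between stages. Per kilobase of transcript LEFTY1 had 112 estimated counts in M and LEFTY2 30.8, a ratio of 3.64. In CMes the values were 11.2 and 147, and in CM 41.2 and 1903, so that LEFTY2 stood 13.1-fold and 46.2-fold above LEFTY1. Both were close to the floor in CP, and no ratio is drawn there. A second LEFTY2 transcript with 5 exons, ENST00000420304.6, was listed from CP to CM alone, with levels of 194 and 0.03 estimated counts in an unresolved order. Of the 31-base stretches of LEFTY1, 57.1% also occur in transcripts of other genes, and 30.8% of those of LEFTY2 occur in LEFTY1. How the quantification divided the reads between them is not known from these tables, so their separate levels are uncertain.

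**Figure D4:**
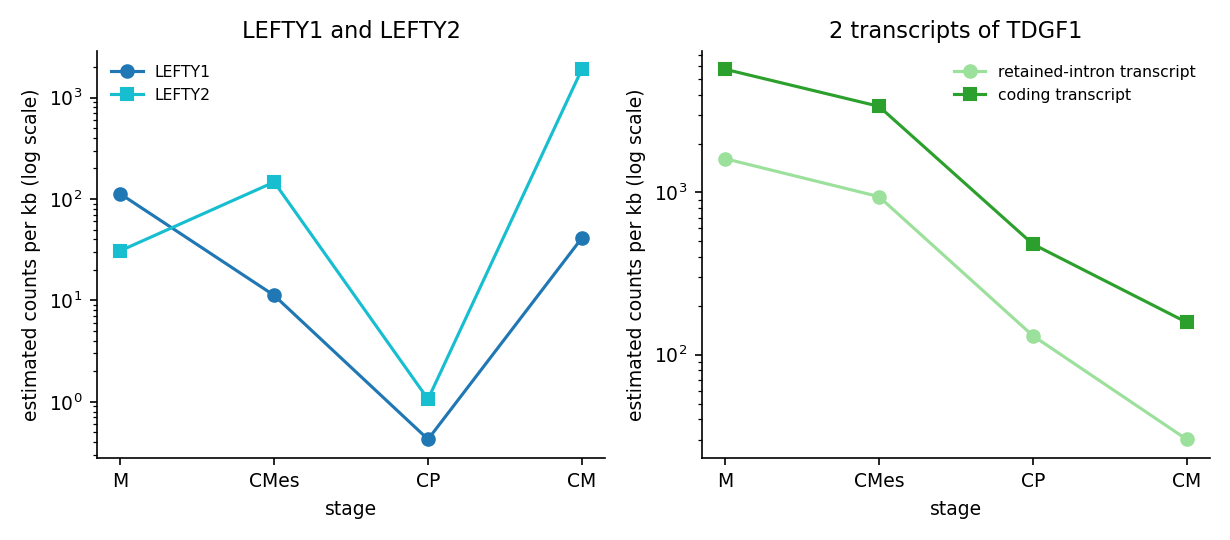
Estimated counts per kilobase of transcript on a log axis, by stage, for LEFTY1 and LEFTY2 (left) and for a retained-intron and the coding transcript of TDGF1 (right). The Lefty lines cross between M, where LEFTY1 is 3.64 times LEFTY2, and CMes, while the TDGF1 lines run side by side until CP.

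TDGF1 lies on the plus strand of chromosome 3 from 46574534 to 46582457. Beside the coding transcript ENST00000296145.6 a transcript with a retained intron, ENST00000493282.5, was listed at the same 3 steps, with 1039 estimated counts in M, 606 in CMes, 84.2 in CP and 19.3 in CM. Its log2 differences were -0.77 (SE 0.26), -2.84 (SE 0.19) and -2.10 (SE 0.71), beside -0.76, -2.82 and -1.61 for the coding transcript. Per kilobase it amounted to 28.1% of the coding transcript in M, 27.8% in CMes, 27.3% in CP and 19.0% in CM. A further TDGF1 transcript with a retained intron, ENST00000471721.1, was listed from CMes to CP alone, with levels of 26.7 and 0.50 in an unresolved order. Of the 31-base stretches of the coding transcript 55.1% also occur in the pseudogene TDGF1P3, so reads of the pseudogene could count as TDGF1.

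NODAL lies on the minus strand of chromosome 10 from 70431936 to 70447951, and the 1 listed transcript is the coding one with 3 exons, ENST00000287139.7. Of its 31-base stretches 33.0% occur in 1 other annotated gene. GDF3, on the minus strand of chromosome 12 from 7689784 to 7695775, and CER1, on the minus strand of chromosome 9 from 14719724 to 14722733, each have 1 annotated transcript with 2 exons and share none of these stretches.

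FOXH1 lies on the minus strand of chromosome 8 from 144473412 to 144475849. Its coding transcript, ENST00000377317.4, shares 38.3% of its 31-base stretches with KIFC2. The shorter transcript with no annotated coding sequence, ENST00000525197.1, shares 0.216% with any other gene and was listed at 3 steps. Its levels were 320 and 110 from iPSC to M and 319 and 107 from M to CMes. Whichever order holds, M stood apart from both neighbours in the same direction, and the iPSC and CMes levels lay close together. The rule does not tell the orders apart, because both the higher and the lower levels meet within its tolerance. The higher levels, 319.6 and 318.7, lay closer together than the lower ones, 109.6 and 106.6. From CP to CM the levels were 63.3 and 0.04, at least 21.1-fold apart against the floor.

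The receptors and SMADs of the pathway, where listed, had median sizes below those of all listed transcripts at each step. Among 7 such genes, 2 were listed for iPSC to M with 0 past 2-fold, 4 at the next step with 2 past it, 3 from CMes to CP with 1, and 4 from CP to CM with 2. The median sizes of the listed ones were 0.60, 0.89, 0.60 and 1.02 on the log2 scale in this order, beside 0.98, 1.22, 1.06 and 1.83 over all listed transcripts. The type I receptor ACVR1B was higher in CMes than in M (log2 difference 1.05, SE 0.13). SMAD3 was higher at each of the last 2 steps, by 1.15 (SE 0.22) and 1.14 (SE 0.16), and reached 3534 estimated counts in CM. SMAD2 had sizes of 0.60 and 0.64 at the same steps, with no direction. The largest sizes in this list were 1.87 (SE 0.39) for ACVR1C from M to CMes and 1.62 (SE 0.14) for ACVR2B from CP to CM. Both were unresolved, with levels of 89.3 and 24.1 for ACVR1C and 6908 and 2251 for ACVR2B.

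Of 7 further ligand, co-receptor and convertase genes 4 were listed at any step, with median sizes of 3.43 (1 gene), 6.50 (2 genes), 1.84 (3 genes) and 2.44 (4 genes) over the successive steps. CFC1, the other EGF-CFC co-receptor, went from 0.167 estimated counts in M, under the floor, to 1719 in CMes, then fell by 1.84 (SE 0.29) in CP and by 1.98 (SE 0.51) in CM. TDGF1 was falling at all 3 of these steps. INHBA, which encodes the subunit of activin A, was higher by 2.51 (SE 0.37) in CP and by 2.90 (SE 0.56) in CM, with 1312 estimated counts. FURIN, a convertase that cleaves the Nodal precursor, was higher by 1.66 (SE 0.19) in CMes and by 0.99 (SE 0.14) in CP.

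Of 9 negative regulators, 5 were listed for iPSC to M, 4 of them past 2-fold, and 6 at the next step, all past 2-fold with 4 higher and 1 lower in CMes. FST, follistatin, an activin-binding protein, was highest in M like NODAL, with 187 estimated counts in iPSC, 5067 in M and 716 in CMes. Unlike NODAL, FST stood higher in CMes than in iPSC. The inhibitory SMAD7 was higher by 1.59 (SE 0.34) in CMes and by 1.18 (SE 0.12) in CP, then fell by 0.74 (SE 0.26) in CM. From CMes to CP 2 of the 9 were listed, both past 2-fold, and from CP to CM 7 were listed, 2 past 2-fold. Their median sizes were 1.18, 1.61, 1.43 and 0.75 over the successive steps, above those of all listed transcripts at the first 3 steps and below the 1.83 of CP to CM. The 2 of 7 past 2-fold at that step compare with 75.2% of all listed transcripts.

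Of 10 known Nodal target genes 5 were listed from iPSC to M, all past 2-fold, of which TBXT and FOXA2 were higher in M and 3 were unresolved. From M to CMes 7 were listed, with 4 higher and 2 lower in CMes. From CMes to CP all 10 were listed, with 6 at least 2-fold lower and 1 at least 2-fold higher in CP. EOMES fell by 4.57 (SE 0.25), LHX1 by 4.02 (SE 0.19) and MESP1 by 5.73 (SE 0.80). From CP to CM 5 were listed, of which 4 were lower, all past 2-fold. Their median sizes, 7.51, 6.11, 3.63 and 3.49, lay above those of all listed transcripts at each step. The list shares TBXT, EOMES, MIXL1 and MESP1 with the mesoderm markers, NANOG with the pluripotent ones and FOXA2 and SOX17 with the endoderm ones.

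Patterns like those of the members were looked for among transcripts of other genes that have directions in the same tables. For NODAL, over 2 transitions and 378 candidates, KLF18 and DNAH9 were among the nearest, with root-mean-square distances of 0.48 and 0.61 on the log2 scale. For FOXH1, over 3 transitions and 789 candidates, ZNF732 was nearest (0.36), followed by ZSCAN10 (1.06) and SP8 (1.25). For TDGF1, among 541 candidates, these were RPL39L (0.51), PMM2 (0.71) and SET (0.76). Distances were larger for the Lefty genes and CER1, and no limit for nearness was set. The nearest were ECM1 for LEFTY2 (2.81), TNFRSF11B for LEFTY1 (2.81) and DIS3L for CER1 (1.98). The next were FN1 (2.99) and NTN1 (3.07), MAP1B (2.88) and SMPDL3B (2.89), and MYRFL (2.03) and PPP2R2B (2.14), in the same order of members. ECM1, FN1 and NTN1 had the same directions as LEFTY2, and DIS3L, MYRFL and PPP2R2B the same as CER1. SMPDL3B had those of LEFTY1, while TNFRSF11B and MAP1B differed from LEFTY1 in direction from iPSC to M.

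In the UBE2B-/- CMs the tables listed 3088 transcripts for line 1 and 3134 for line 2, 1992 of them for both, and 0 were member transcripts. The tables list only what passed the limit of the study, so the member levels in these lines, and the interval within which they could differ from wild-type CMs, are not known.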

How the data were processed

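Transcripts of 15 wild-type and 6 UBE2B-/- libraries were quantified by the authors with Kallisto on hg38 and compared in Sleuth by a Wald test, with samples grouped by their labels. The deposited tables give the mean natural log of the normalized estimated counts plus 0.5, and variances, which are score values on the squared natural log scale, pooled over all libraries of a comparison. Their effect, error, p and q columns were not used. Depth per library is unknown.

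For 6 libraries the between-stage variance was the total minus the residual variance, which gives the size of the difference. The standard error used the larger of own and smoothed residual variance. Of the 4 sign combinations of neighbouring tables, the one that matched the shared stage within 0.1 (natural log) was taken when the combinations of the other sign missed by over 0.3. Of the transcripts shared by neighbouring tables, 1551 of 1551, 2427 of 2427 and 3719 of 3743 met the tolerance, after offsets of -0.07, -0.01 and 0.13. Identifiers and coordinates follow GENCODE 44, joined without the version, and some versions differ from those in the tables. Lengths are of annotated transcripts.

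The members, gene lists and rules were chosen with earlier results of these data known. All 7 members were named with every listed transcript, the one with the highest mean speaking for the gene. Other genes were named only from the lists of stage markers, receptors and SMADs, ligands and co-receptors, negative regulators and targets, or as the 3 transcripts nearest in pattern, 1 of which is not reported here. Alternatives were other fold limits, a minimum level, 1 transcript per gene, the own variance, other tolerances, another offset and, added later, another separation. Scripts used Python 3.11.15, numpy 2.4.6, pandas 2.3.3 and scipy 1.17.1.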

Additional observations from a re-analysis of the deposited data

How the results depend on the processing

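With a fold limit of 1.5 in place of 2, 7 in place of 4 member transcripts passed from M to CMes, the other 3 being the transcripts of TDGF1 and the coding one of FOXH1. Other counts past the limit stayed within 1.5 times under that limit, with a mean of at least 10 estimated counts, and with 1 transcript per gene. No member changed direction under any tolerance, offset or separation tried. The 20 directions became 19 with a tolerance of 0.05, where LEFTY1 from CP to CM was lost, and 22 with the separation of 0.1 chosen after seeing the data. With the own variance alone the standard error was smaller for 14 of the 29 differences. Sizes were then 3.02 to 50.2 times their standard errors, beside 2.94 to 24.1. No paired analysis was possible because the tables hold no value per library, and no replicate could be left out. The comparison of both UBE2B-/- lines with wild type was not run, since no member is listed there.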
